A study of Mus musculus with 16 samples.

Results

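Amino acid transporters move amino acids and related small molecules across the plasma membrane and the membrane of the lysosome. The genes described here are the mouse members of the solute carrier families 1, 3, 6, 7, 36, 38 and 43, chosen by symbol from the array annotation. They number 58 among the 18193 genes that have a probe set of their own, and 118 probe sets stand for them. Of the 58, 32 were bright enough to be tested, among 10802 tested genes, each by its probe set with the highest mean. A probe set counted as bright where it exceeded log2 4 on at least 2 arrays.

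The cells were of the P19CL6 line, derived from mouse embryonal carcinoma, which forms beating cardiac muscle when dimethyl sulfoxide (DMSO) is added to the medium. Growth cultures were kept undifferentiated without DMSO, with passage every 48 h (3 arrays). Differentiating cultures were plated in medium with 1% DMSO, renewed every 48 h, and were taken at day 4 (3 arrays), day 6 (2 arrays, replicates B and C), day 8 (3 arrays), day 10 (3 arrays) and day 12 (2 arrays, replicates A and C). All are 1 cell line, and no culture was kept as long without DMSO, so the effects of DMSO and of time without passage cannot be told apart. The arrays measured whole cultures, in which fewer cells of a type and less RNA per cell cannot be told apart.

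Cells take up amino acids by carriers of several kinds. Some use the sodium gradient (families 1, 6 and 38), some use protons (family 36), and some exchange one amino acid for another. In family 7, the cationic carriers act alone, whereas the light chains need a heavy chain of family 3 to reach the cell surface. Amino acid supply feeds protein synthesis and the mTORC1 kinase, and several transporter genes are known targets of ATF4, the transcription factor of the integrated stress response, which cells use when amino acids run short.

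The promoters of the 4 genes below are shown because Slc7a7 had the largest fall of all members, Slc7a6 is its closest paralog, and Slc7a11 and Slc1a4 hold, like Slc7a7, the core of the element to which ATF4 and C/EBP proteins are known to bind. The last pair was chosen after the match was seen. Each window runs from 250 bases before to 50 bases after the annotated start of the gene, on the minus strand except for Slc7a6. They are RefSeq sequences of build GRCm38.p6, written 5′ to 3′ on the gene's strand, and capitals mark TGATGCAA or its reverse complement. The positions are chr14:54417895-54418194 for Slc7a7, chr8:106168604-106168903 for Slc7a6, chr3:50443564-50443863 for Slc7a11 and chr11:20332664-20332963 for Slc1a4.
Slc7a7: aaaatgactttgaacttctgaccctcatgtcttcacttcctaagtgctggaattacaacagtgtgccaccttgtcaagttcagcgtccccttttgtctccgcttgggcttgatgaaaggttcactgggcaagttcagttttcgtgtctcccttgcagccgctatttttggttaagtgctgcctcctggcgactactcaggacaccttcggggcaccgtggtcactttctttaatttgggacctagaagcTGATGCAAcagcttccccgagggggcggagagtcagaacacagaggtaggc
Slc7a6: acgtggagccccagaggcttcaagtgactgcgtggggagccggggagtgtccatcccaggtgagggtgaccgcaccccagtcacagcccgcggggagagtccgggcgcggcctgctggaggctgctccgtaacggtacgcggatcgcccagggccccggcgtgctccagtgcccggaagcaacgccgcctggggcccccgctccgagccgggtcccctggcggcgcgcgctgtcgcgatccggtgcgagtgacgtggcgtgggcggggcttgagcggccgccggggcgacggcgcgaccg
Slc7a11: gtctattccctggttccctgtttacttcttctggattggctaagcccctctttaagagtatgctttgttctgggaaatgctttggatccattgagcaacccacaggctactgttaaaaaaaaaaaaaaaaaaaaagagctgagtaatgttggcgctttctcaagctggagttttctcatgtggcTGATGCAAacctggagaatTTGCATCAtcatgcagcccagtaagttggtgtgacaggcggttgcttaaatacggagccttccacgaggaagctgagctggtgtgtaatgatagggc
Slc1a4: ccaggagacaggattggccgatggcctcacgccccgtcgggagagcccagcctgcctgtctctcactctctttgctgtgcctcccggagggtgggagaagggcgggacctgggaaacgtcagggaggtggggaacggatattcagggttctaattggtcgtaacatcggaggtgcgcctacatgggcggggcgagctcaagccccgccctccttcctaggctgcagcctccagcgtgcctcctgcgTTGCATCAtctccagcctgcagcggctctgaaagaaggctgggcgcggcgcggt

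Of the 58 genes, 41 had such windows in the table, 62 in number, and 21 of these genes were tested. Slc7a2, Slc7a3 and Slc7a5 were among the genes without a window, so their promoters were not searched. TGATGCAA on either strand occurred in 4 of the 62 windows, which belong to Slc7a7, Slc7a11 and Slc1a4, against 0.895% of all 32851 windows. Slc7a11 held it on both strands, with first bases at -66 and -47 from the start, and Slc1a4 held it once, at -4 on the opposite strand. In Slc7a7 a single copy at -1 was also covered by an overlapping window of a second start. The windows of the other annotated Slc7a7 starts did not hold it. The looser form TGATGNAA was in 3.97% of all windows and in those of 4 members, the same 3 and Slc6a21. A match describes these letters only and shows no binding.

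Over the whole time course 24 of the 32 tested members changed, which is 75% of them, beside 60.9% of all tested genes (limma's moderated F test with Benjamini-Hochberg adjusted p under 0.05 and group means at least 1 log2 apart). The median distance between a gene's lowest and highest group mean was 1.80 log2 for the members and 1.27 log2 for all tested genes. Falls outnumbered rises on every DMSO day. Slc38a3, Slc7a11 and Slc43a2 counted as bright only through growth arrays, which favours lower calls against growth for them. Slc1a6, Slc6a17 and Slc43a3 counted as bright only through DMSO arrays, which favours higher calls. Counts without such members were not made. Slc7a7, Slc6a15, Slc38a3, Slc38a7 and Slc7a11 were called lower than in growth at all 5 days. Slc7a2, Slc38a4 and Slc6a8 were called higher at all 5, with Slc6a8 near the threshold on some of these days. The share of all tested genes called at all 5 days was not counted, so these members cannot be set against it.

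A gene was called in a single comparison where limma's adjusted p over all tested genes was under 0.05 and the group means differed by at least 1 log2. At day 4 against growth 4 members were called higher and 10 lower, while 13.3% and 13.6% of all tested genes were. At day 6 the counts were 4 and 10, with 14% and 12.9% of all genes, and at day 8 they were 5 and 7, with 16% and 15%. Day 10 had 5 members higher and 12 lower, beside 18.5% and 19.5% of all genes. By day 12 there were 5 higher and 15 lower, beside 22.5% and 19.3%. The share of members called higher, 12.5 to 15.6%, was thus near or under that of all genes on each day, and the share called lower was above it, at 21.9 to 46.9%. Both shares include the members that counted as bright only through growth arrays or only through DMSO arrays.

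**Figure D1:**
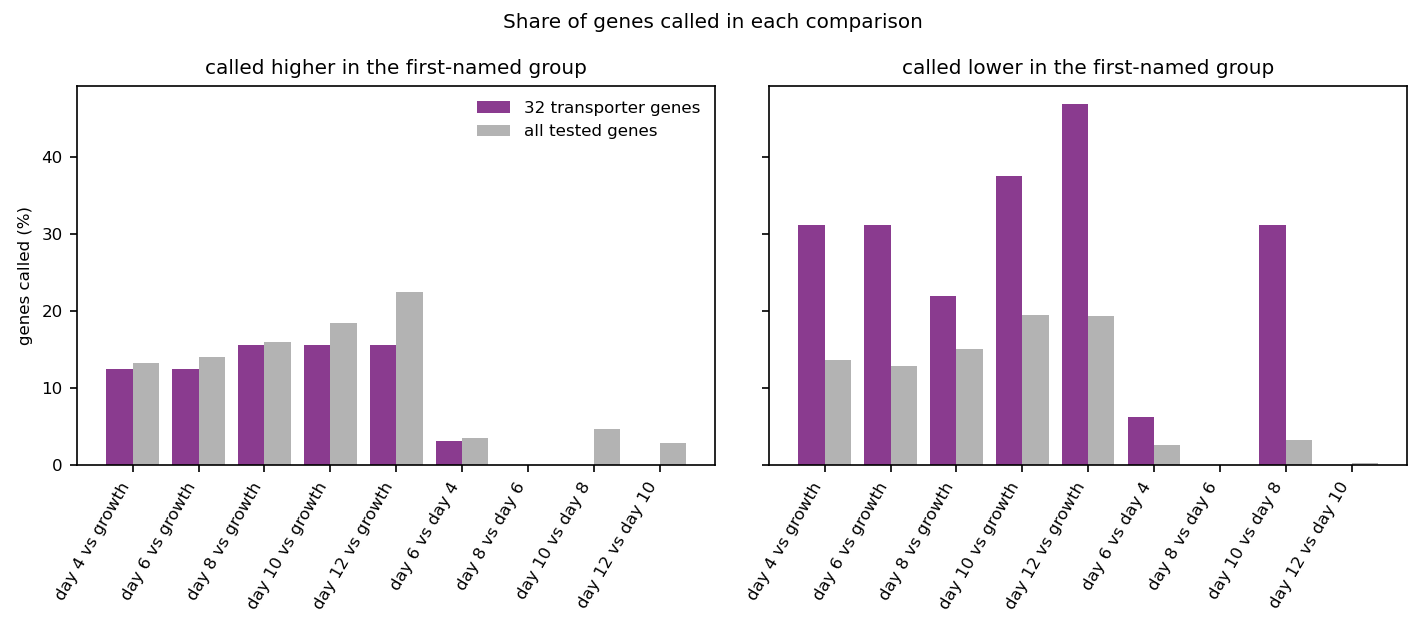
Percent of the 32 tested transporter genes (purple) and of all 10802 tested genes (grey) called higher (left) or lower (right) in the first-named group of each comparison. The purple bars stand above the grey ones for lower calls against growth and for day 10 against day 8, where 10 of 32 members were called lower.

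The members' median difference from growth was 0.11 log2 at day 4, 0.14 at day 6 and 0.05 at day 8, then -0.48 at day 10 and -0.72 at day 12. The median over all tested genes lay between -0.02 and 0.01 log2 on these days. The mean over the 32 members was 6.27 to 6.56 log2 on the arrays of days 10 and 12 and 6.86 to 7.25 log2 on all other arrays, so these ranges did not overlap.

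**Figure D2:**
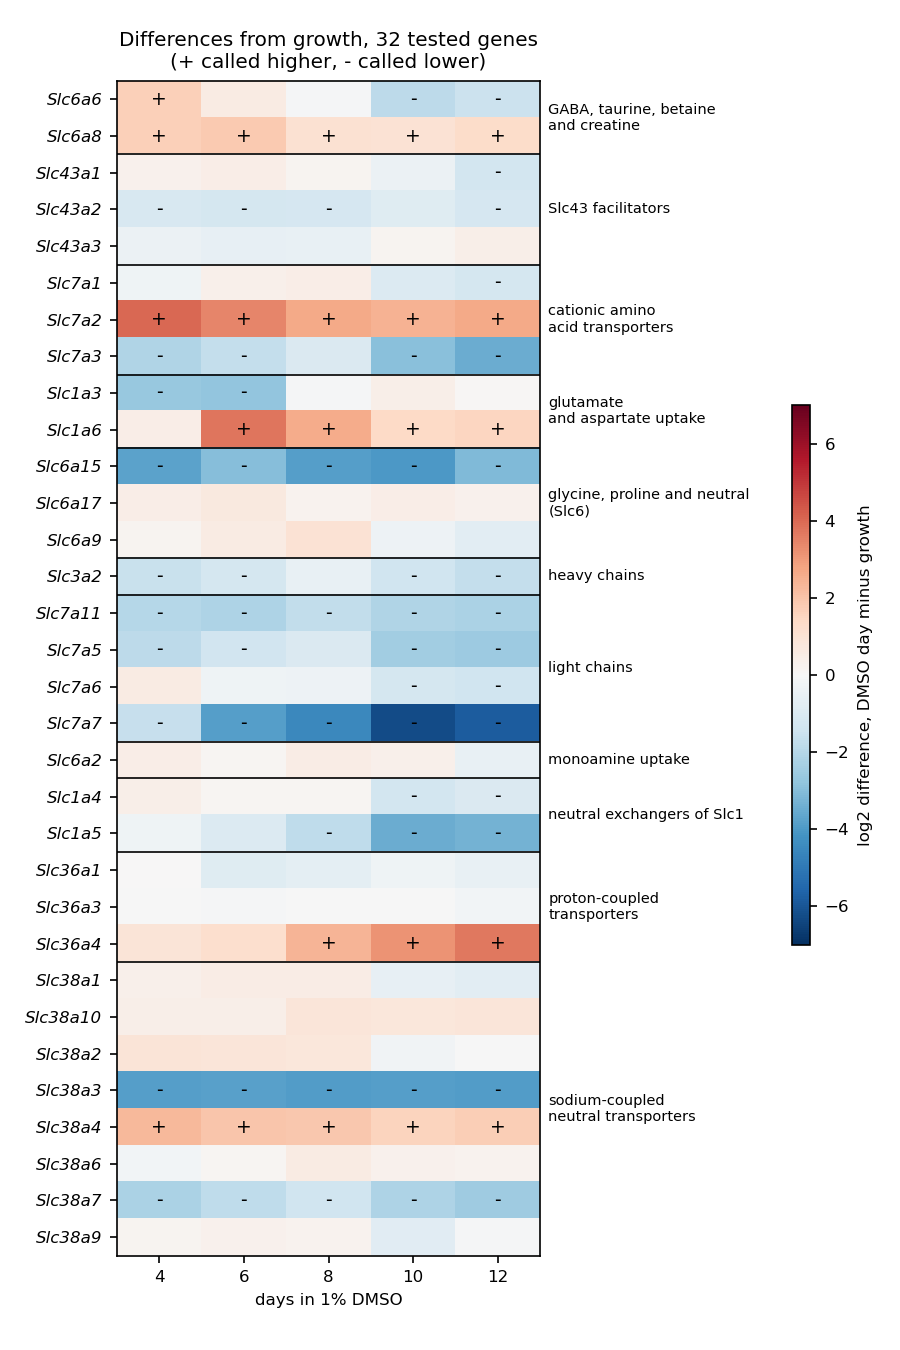
Difference from growth in log2 signal (colour, red higher and blue lower than growth) for the 32 tested members at days 4 to 12 in 1% DMSO, grouped by role, with + for genes called higher and - for genes called lower. Slc7a7 has the deepest blue, at day 10, and Slc7a2 the deepest red, at day 4.

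The cultures changed their makeup over the same days. The mean of 7 tested pluripotency markers was 5.68 to 6.16 log2 on day 12 arrays and 10.68 to 10.98 log2 on growth arrays, and that of 12 cardiac muscle markers was 2.79 to 3.08 log2 in growth, 3.89 to 7.01 at day 8, 9.77 to 9.97 at day 10 and 10.91 to 11.11 at day 12. Markers of other cells rose too: the mean of 4 smooth muscle markers was 9.23 to 9.35 log2 at day 12 against 4.23 to 4.71 in growth, and that of 4 endothelial markers was 5.56 to 6.04 against 2.50 to 2.79, with Myh11, Tie1 and Emcn dim throughout. The 3 tested markers of extraembryonic endoderm (Ttr, Afp and Apoa1) averaged 8.80 to 9.02 log2 at day 12 against 2.87 to 2.97 in growth, while 8 others of that list, Sox17, Hnf4a and Foxa2 among them, were dim. Embryonic blood markers (4 tested) peaked at 8.60 to 9.91 log2 at day 10 against 2.40 to 2.58 in growth, with Hba-a1, Gata1 and Klf1 dim. The 7 tested epithelial markers averaged 5.98 to 6.32 at day 12 against 7.20 to 8.33 in growth. The 4 neural ones averaged 4.91 to 5.37 against 5.06 to 5.21, with Sox1, Pax6, Neurod1, Gfap, Slc17a6 and Mapt dim. Both means join opposite moves. At day 12 Map2 and Gad1 differed from growth by 2.97 and 1.92 log2, and Nes and Tubb3 by -2.44 and -2.35 log2. Of the epithelial markers, 1 was called higher and 4 lower at day 12 (14.3% and 57.1%, beside 22.5% and 19.3% of all tested genes). Krt8 had 13.1 to 13.23 log2 at day 8 against 7.53 to 8.04 in growth. The part of these markers' cells in the transporter results was not tested. Array medians lay between 3.16 and 3.27 log2, and the 3 probe sets for 18S rRNA averaged 8.04 to 8.69 log2 at day 12 against 4.91 to 5.66 in growth. Day 8 replicate A stood apart: over all tested genes its correlation with both day 6 arrays was 0.990 to 0.992, and with its own group's replicates B and C it was 0.956 to 0.967.

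The heavy chain Slc3a2, also known as 4F2hc or CD98, carries the light chains Slc7a5, Slc7a6, Slc7a7, Slc7a8, Slc7a10 and Slc7a11 to the cell surface. Its log2 signal was 11.42, 11.29 and 11.51 in growth, 10.01, 9.67 and 9.91 at day 4, and 10.30 and 10.06 at day 6. It was 10.23, 11.24 and 11.17 at day 8, 9.23, 10.07 and 10.67 at day 10, and 9.31 and 10.19 at day 12. Every DMSO array lay below the lowest growth array. The fall was called at day 4 (-1.54 ± 0.34 log2, here and below the difference ± its SE, adjusted p = 0.0022), at day 6 (-1.23 ± 0.39, adjusted p = 0.0198), at day 10 (-1.42 ± 0.34, adjusted p = 0.00284) and at day 12 (-1.65 ± 0.39, adjusted p = 0.00208). At day 8 the difference of -0.53 ± 0.34 log2 was not called (adjusted p = 0.216). The day 6 call was lost without growth replicate C, day 6 replicate B or day 6 replicate C, with adjusted p up to 0.121. The other heavy chain, Slc3a1 or rBAT, never exceeded 2.02 log2, and its partner Slc7a9 never exceeded 2.53.

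Slc7a7 encodes y+LAT1, which exports arginine and lysine in exchange for neutral amino acids. Its signal was 10.45, 9.85 and 10.00 in growth, 7.60, 8.85 and 8.97 at day 4, and 6.29 and 6.16 at day 6. It went on to 5.75, 5.76 and 5.22 at day 8, 3.30, 4.05 and 4.10 at day 10, and 4.04 and 4.48 at day 12. From growth to day 10 no 2 groups in sequence overlapped, and 1 of the 3 day 10 arrays lay under the dim cutoff. Slc7a7 was 77.9-fold lower at day 10 than in growth (-6.28 ± 0.33 log2, adjusted p = 5.29e-09) and 57.3-fold lower at day 12 (-5.84 ± 0.37 log2, adjusted p = 3.26e-08), the largest differences of any member on those days. With values under 4 set to 4 the day 10 fold was 66.2 (adjusted p = 4.54e-09). Between neighbouring days it fell at day 6 against day 4 (-2.25 ± 0.37 log2, adjusted p = 0.00176) and at day 10 against day 8 (-1.76 ± 0.33 log2, adjusted p = 0.00374, or -1.53 log2 with values under 4 set to 4). A second Slc7a7 probe set gave -5.92 log2 at day 12 against growth.

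Its paralog Slc7a6, or y+LAT2, does the same exchange. Its group means were 8.49 log2 in growth, 9.07 at day 4, 8.21 at day 6, 8.14 at day 8, 7.24 at day 10 and 7.09 at day 12, each with an SD of at most 0.16. It was called lower at day 10 (-1.25 ± 0.13 log2, adjusted p = 1.99e-06) and at day 12 (-1.40 ± 0.14 log2, adjusted p = 2.02e-06). At day 4 it was 0.58 ± 0.13 log2 higher, with an adjusted p of 0.00199 but a difference under the threshold of 1 log2. The difference between the paralogs' changes was not tested.

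Slc7a5, or LAT1, imports leucine and other large neutral amino acids. Its signal was 11.32, 10.88 and 11.11 in growth, 9.55, 8.66 and 9.55 at day 4, and 9.75 and 9.78 at day 6. It was 9.36, 10.64 and 10.24 at day 8, 7.73, 8.51 and 9.78 at day 10, and 8.14 and 8.93 at day 12. Each DMSO array lay below the growth arrays, and the day 10 arrays spread over 2 log2. Slc7a5 fell at day 4 (-1.85 ± 0.45 log2, adjusted p = 0.00398), day 10 (-2.43 ± 0.45, adjusted p = 0.00038) and day 12 (-2.57 ± 0.51, adjusted p = 0.000589). The day 6 call (-1.34 ± 0.51 log2, adjusted p = 0.0464) was lost in 9 of the 16 fits that left out 1 array, among them those without each growth array or each day 6 array, with adjusted p up to 0.158. At day 8 the difference of -1.03 ± 0.45 log2 was not called (adjusted p = 0.0714).

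The cystine and glutamate exchanger xCT, encoded by Slc7a11, supplies cystine for glutathione synthesis. Its signal lay between 2.58 and 3.57 log2 on the 13 DMSO arrays, against 5.85, 4.45 and 5.25 in growth. All DMSO arrays were thus under the dim cutoff, and Slc7a11 was at least 2.27-fold lower than in growth on each DMSO day (adjusted p from 3.2e-05 to 0.000221). Of the other light chains, Slc7a8 (LAT2) exceeded the cutoff on 1 day 12 array only, at 4.45 log2, and Slc7a10, Slc7a12, Slc7a13 and Slc7a15 did not exceed it on any array.

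**Figure D3:**
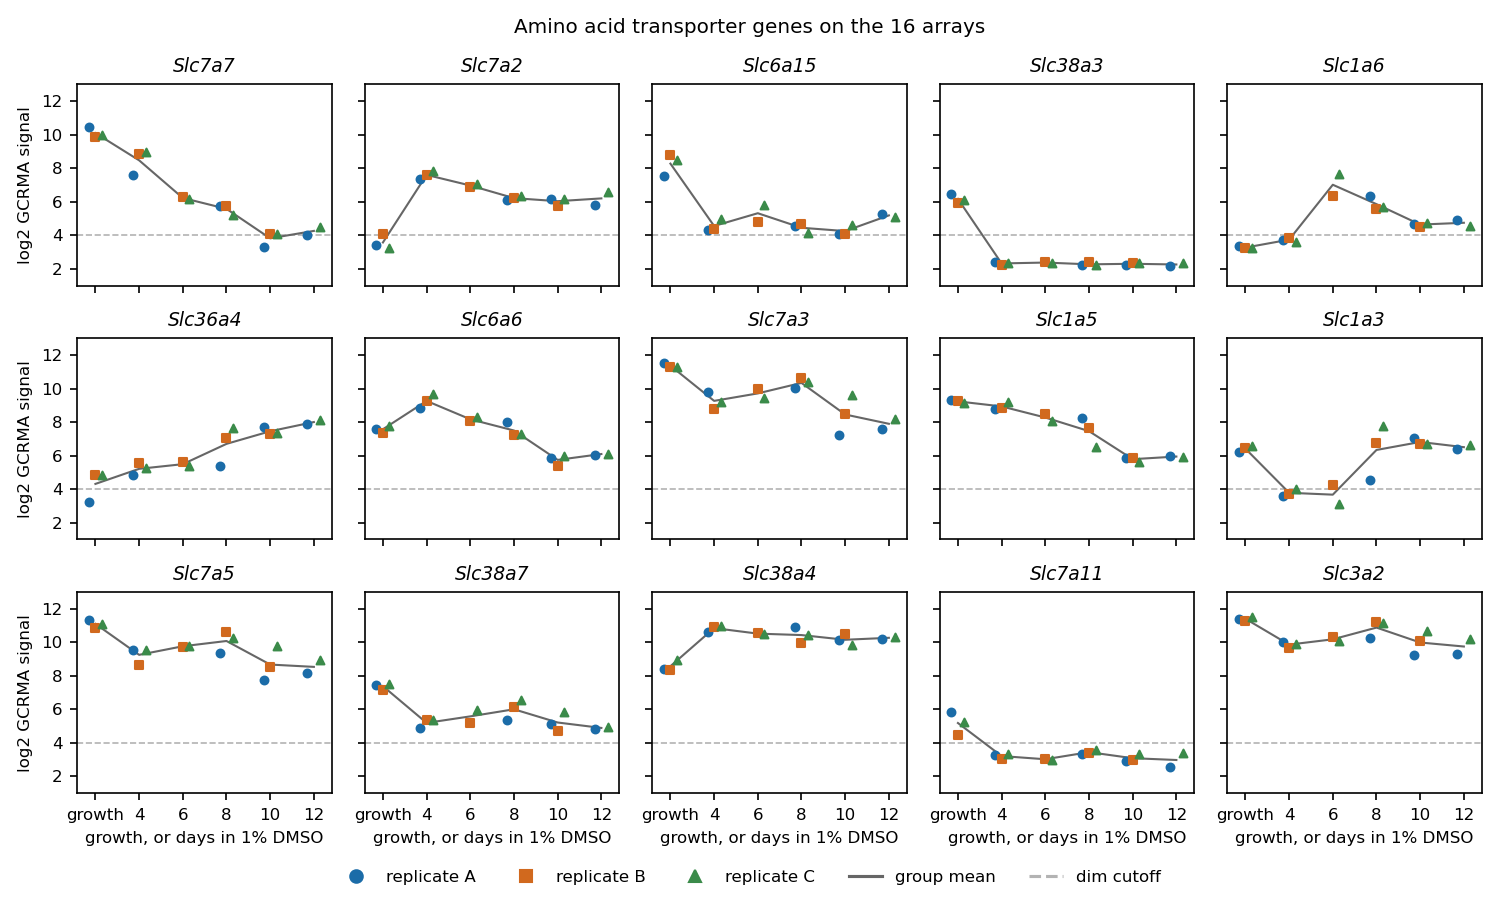
Log2 signal of the 14 members whose group means lie at least 2 log2 apart over the time course and of the heavy chain gene Slc3a2 on each of the 16 arrays, by growth or days in 1% DMSO. Symbols mark replicates A, B and C, the line joins group means and the dashed line is the dim cutoff of log2 4; Slc7a7 descends to the cutoff by day 10, Slc38a3 lies under it on all DMSO arrays and Slc36a4 is highest at day 12.

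The cationic carriers of family 7 take up arginine, lysine and ornithine, and the 3 tested ones moved in different directions. Slc7a2, or CAT2, had 3.40, 4.07 and 3.24 log2 in growth, 7.37, 7.60 and 7.84 at day 4, and 6.87 and 7.07 at day 6. It had 6.10, 6.20 and 6.35 at day 8, 6.18, 5.77 and 6.15 at day 10, and 5.81 and 6.59 at day 12. All DMSO arrays lay above the growth arrays, of which 1 of 3 exceeded the dim cutoff. Slc7a2 was 16.4-fold higher at day 4 than in growth (4.04 ± 0.24 log2, adjusted p = 2.41e-08) and 5.52-fold to 10.6-fold higher on the later days. The growth mean lay under the cutoff. With values under 4 set to 4 the fold was 12 at day 4 (adjusted p = 1.3e-08) and 4.02 to 7.72 on the later days. The rise rests on 1 probe set. The gene's 3 others exceeded the cutoff on 0 arrays and differed by only 0.02 to 0.09 log2 between day 4 and growth.

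Slc7a3, or CAT3, had 11.52, 11.31 and 11.26 log2 in growth, 9.81, 8.80 and 9.18 at day 4, and 10.00 and 9.42 at day 6. It had 10.01, 10.63 and 10.37 at day 8, 7.25, 8.48 and 9.62 at day 10, and 7.59 and 8.20 at day 12. The DMSO arrays were all lower than the growth arrays, with days 10 and 12 mostly below the earlier days. Slc7a3 fell at day 4 (-2.10 ± 0.45 log2, adjusted p = 0.0017), day 6 (-1.65 ± 0.51, adjusted p = 0.0173), day 10 (-2.91 ± 0.45, adjusted p = 8.44e-05) and day 12 (-3.47 ± 0.51, adjusted p = 4.95e-05). Without day 6 replicate C the day 6 call was lost (adjusted p = 0.139). The day 10 difference was -2.31 log2 without day 10 replicate A and -3.50 log2 without replicate C. Slc7a1, or CAT1, which most tissues use, had group means of 11.19 in growth, 10.90, 11.54 and 11.66 at days 4, 6 and 8, and 10.22 and 9.96 at days 10 and 12. It was called lower at day 12 (-1.23 ± 0.35 log2, adjusted p = 0.00782), a call lost without day 12 replicate A (adjusted p = 0.0923). Slc7a4 and Slc7a14 stayed under the dim cutoff.

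Slc1a5, or ASCT2, exchanges neutral amino acids and is a main route of glutamine entry in dividing cells. Its signal was 9.33, 9.23 and 9.14 in growth, 8.78, 8.84 and 9.18 at day 4, and 8.48 and 8.06 at day 6. It was 8.22, 7.64 and 6.51 at day 8, 5.84, 5.87 and 5.64 at day 10, and 5.99 and 5.89 at day 12. Day 4 overlapped growth by 1 array, and from day 6 on all arrays lay below growth. The difference reached -1.78 ± 0.31 log2 at day 8 (adjusted p = 0.000331) and 10.9-fold lower at day 10 (-3.45 ± 0.31 log2, adjusted p = 7.21e-07). Its paralog Slc1a4, or ASCT1, which carries alanine, serine and cysteine, had group means of 10.23 in growth and 10.37 to 10.63 at days 4 to 8, and was called lower at day 10 (8.93 against 10.23 log2, adjusted p = 0.000129) and day 12 (9.22 against 10.23 log2, adjusted p = 0.00218). The day 12 difference of Slc1a4, -1.01 ± 0.24 log2, was no longer called without growth replicate A or day 12 replicate A, whereas its 2 other probe sets differed by more, the lowest by -2.34 log2.

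The glutamate and aspartate carriers of family 1 clear glutamate from the extracellular space. Slc1a3, the glial GLAST, had 6.21, 6.47 and 6.55 log2 in growth, 3.58, 3.72 and 4.03 at day 4, and 4.25 and 3.08 at day 6. It had 4.51, 6.75 and 7.74 at day 8, 7.07, 6.69 and 6.67 at day 10, and 6.40 and 6.60 at day 12. Days 4 and 6 lay wholly below growth, and day 8 spanned the gap, with replicate A low. Slc1a3 fell at day 4 (-2.63 ± 0.57 log2, adjusted p = 0.00186) and day 6 (-2.74 ± 0.64 log2, adjusted p = 0.00355). Without day 6 replicate B the day 6 difference was -3.33 log2, and without replicate C it was -2.16 log2 and not called (adjusted p = 0.0609). The dim cutoff lay above 2 of the 3 day 4 arrays and 1 of the 2 day 6 arrays, and with values under 4 set to 4 the differences were -2.40 log2 (adjusted p = 0.00268) and -2.28 log2 (adjusted p = 0.00878). The later days had no call against growth. The 4 Slc1a3 probe sets that passed the filter differed in sign at day 12, from -0.61 to 0.11 log2.

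Slc1a6, or EAAT4, is best known from Purkinje cells of the cerebellum. Its signal was 3.35, 3.23 and 3.21 in growth, 3.74, 3.85 and 3.62 at day 4, and 6.37 and 7.66 at day 6. It was 6.37, 5.54 and 5.66 at day 8, 4.66, 4.50 and 4.75 at day 10, and 4.91 and 4.58 at day 12. Growth and day 4 were dim on every array, and all later arrays exceeded the cutoff. Slc1a6 was at least 8.07-fold higher at day 6 than in growth (adjusted p = 7.19e-07) and than at day 4 (adjusted p = 2.23e-05), at least 3.62-fold higher than growth at day 8 (adjusted p = 5.03e-06), and at least 1.55-fold and 1.67-fold higher at days 10 and 12. Without day 6 replicate C the bound at day 6 was 5.15-fold, and without replicate B it was 12.6-fold. With values under 4 set to 4, the calls of days 10 and 12 were lost (adjusted p = 0.0625 and 0.0515). Slc1a1, Slc1a2 and Slc1a7, the other carriers of this kind, did not exceed the cutoff on any array.

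Family 38 holds sodium-coupled carriers of glutamine and other neutral amino acids. Slc38a3, or SNAT3, a glutamine carrier of liver, kidney and astrocytes, had 2.17 to 2.39 log2 on the 13 DMSO arrays, against 6.46, 5.94 and 6.11 in growth. It was dim on all DMSO arrays, and at least 4.51-fold lower than in growth on each DMSO day (adjusted p from 2.11e-10 to 1.35e-09). Slc38a7, or SNAT7, known to carry glutamine and asparagine out of lysosomes, had 7.48, 7.14 and 7.53 in growth, 4.87, 5.35 and 5.35 at day 4, and 5.19 and 5.97 at day 6. It had 5.36, 6.11 and 6.54 at day 8, 5.13, 4.69 and 5.82 at day 10, and 4.81 and 4.97 at day 12. All DMSO arrays lay below growth, and the differences were called at each day, the smallest at day 8 (-1.38 ± 0.33 log2, adjusted p = 0.00297) and the largest at day 12 (-2.49 ± 0.37 log2, adjusted p = 5.29e-05).

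Slc38a4, or SNAT4, is an imprinted gene of placenta and liver. It had 8.42, 8.37 and 8.93 log2 in growth, 10.63, 10.92 and 11 at day 4, and 10.57 and 10.47 at day 6. It had 10.89, 9.96 and 10.45 at day 8, 10.15, 10.47 and 9.84 at day 10, and 10.20 and 10.34 at day 12. All 13 DMSO arrays lay above the 3 growth arrays. The rise was 4.86-fold at day 4 (2.28 ± 0.24 log2, adjusted p = 4.47e-06) and 3.25-fold at day 12 (1.70 ± 0.27 log2, adjusted p = 9.09e-05).

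Slc38a1 and Slc38a2 (SNAT1 and SNAT2) lie with Slc38a4 on chromosome 15 and had no call against growth. SNAT2 is known to be induced when amino acids are withdrawn. Group means of Slc38a2 were 11.77 log2 in growth, 12.68, 12.60 and 12.54 at days 4, 6 and 8, and 11.51 and 11.76 at days 10 and 12, and its day 4 difference of 0.91 ± 0.23 log2 had an adjusted p of 0.00506. Those of Slc38a1 were 11.07 in growth, 11.45, 11.59 and 11.59 at days 4 to 8, and 10.51 and 10.34 at days 10 and 12. Its probe set ends in _s_at, a class that can bind other transcripts. With the gene's other probe set in its place the differences were called at day 10 (-1.28 log2, adjusted p = 0.00716) and day 12 (-2.06 log2, adjusted p = 0.000531). Slc38a6, Slc38a9 and Slc38a10 had no call against growth in the main model. At day 12 the passing probe sets differed in sign, from -1.41 to 0.07 log2 for Slc38a9 and from -0.57 to 0.84 log2 for Slc38a10. Without growth replicate A, Slc38a9 was called lower at day 10 (-1.24 log2, adjusted p = 0.0047). Without growth replicate B, Slc38a10 was called higher at day 8 (1.02 log2, adjusted p = 0.00204) and day 12 (1.00 log2, adjusted p = 0.00304). Slc38a9, the lysosomal arginine sensor of mTORC1, had group means between 5.42 log2 at day 10 and 6.50 log2 at day 6. Slc38a5 stayed under the cutoff.

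Among the proton-coupled carriers, Slc36a4, or PAT4, which binds proline and tryptophan, was first called at day 8. Its signal was 3.24, 4.85 and 4.83 in growth, 4.83, 5.53 and 5.26 at day 4, and 5.61 and 5.36 at day 6. It was 5.40, 7.05 and 7.64 at day 8, 7.70, 7.30 and 7.35 at day 10, and 7.87 and 8.13 at day 12. Growth replicate A was the lowest array, day 4 touched the growth range, and days 10 and 12 lay above all growth, day 4 and day 6 arrays. Slc36a4 was 5.24-fold higher than growth at day 8 (2.39 ± 0.50 log2, adjusted p = 0.00121, or 8.21-fold without day 8 replicate A) and 12.9-fold higher at day 12 (3.69 ± 0.56 log2, adjusted p = 6.6e-05). The lysosomal Slc36a1 had means of 3.27 to 4.16 log2 and Slc36a3 of 4.04 to 4.22 log2, with no call, and Slc36a2 was dim.

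The carriers of taurine and creatine belong to family 6. Slc6a6, the taurine transporter, had 7.60, 7.32 and 7.79 log2 in growth, 8.85, 9.24 and 9.69 at day 4, and 8.04 and 8.29 at day 6. It had 7.98, 7.23 and 7.27 at day 8, 5.86, 5.40 and 5.96 at day 10, and 6.06 and 6.12 at day 12. Day 4 lay wholly above growth and days 10 and 12 wholly below it. The rise at day 4 (1.69 ± 0.25 log2, adjusted p = 9.03e-05) and the falls at day 10 (-1.83 ± 0.25 log2, adjusted p = 2.72e-05) and day 12 (-1.48 ± 0.28 log2, adjusted p = 0.000414) were called. With the mean of its probe sets in place of the brightest one, the day 4 rise was 0.97 log2 and no longer called. Another probe set past the filter was 1.57 log2 higher at day 4. The remaining one, above the cutoff on only 2 arrays, differed by -0.36 log2.

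Slc6a8, the creatine transporter, which supplies heart, muscle and brain, had group means of 5.99 log2 in growth, 7.67 at day 4, 7.82 at day 6, 7.02 at day 8, 7 at day 10 and 7.30 at day 12. It was higher by 1.68 ± 0.19 log2 at day 4 (adjusted p = 1.14e-05) and 1.31 ± 0.22 log2 at day 12 (adjusted p = 0.000154). The differences at day 8 (1.04 log2) and day 10 (1.01 log2) were close to the threshold and were under it in several alternatives, with the lowest, 0.56 log2 at day 10, for the mean of the gene's 2 probe sets. That mean also took the day 12 difference just under the threshold (adjusted p = 0.00316) and gave 1.05 log2 at day 4. The GABA and betaine carriers Slc6a11, Slc6a12 and Slc6a13 were dim.

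Slc6a15, or B0AT2, carries branched-chain amino acids and proline and is known mainly from neurons. Its signal was 7.55, 8.80 and 8.48 in growth, 4.31, 4.36 and 4.99 at day 4, and 4.82 and 5.81 at day 6. It was 4.56, 4.67 and 4.11 at day 8, 4.06, 4.10 and 4.59 at day 10, and 5.28 and 5.09 at day 12. All DMSO arrays lay below the growth arrays. Slc6a15 was 13.2-fold lower at day 4 than in growth (-3.72 ± 0.33 log2, adjusted p = 1.06e-06) and 16.3-fold lower at day 10 (-4.03 ± 0.33 log2, adjusted p = 2.94e-07). Slc6a9, the glycine transporter GlyT1, had means of 7.78 in growth, 7.95, 8.38 and 8.78 at days 4, 6 and 8, and 7.42 and 7.06 at days 10 and 12. Its day 8 difference from growth, 1.00 ± 0.36 log2, fell just short of a call, and was 1.21 log2 without day 8 replicate A (adjusted p = 0.0206). The norepinephrine transporter Slc6a2 and the vesicular carrier Slc6a17 had no call, and Slc6a3, Slc6a4, Slc6a5, Slc6a7, Slc6a14, Slc6a16, Slc6a18, Slc6a19 and Slc6a21 were dim.

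Of the facilitators of family 43, Slc43a1 (LAT3) was called lower only at day 12, with 5.16 and 4.12 log2 there against 5.91, 5.85 and 6.04 in growth (-1.30 ± 0.35 log2, adjusted p = 0.00535, or 0.118 without day 12 replicate C). Slc43a2 (LAT4) had 3.32 to 3.94 log2 on the DMSO arrays, all dim, against 4.09, 4.99 and 4.79 in growth, and was at least 1.54-fold lower. It was called at days 4, 6, 8 and 12, but without growth replicate B only at day 6, and with values under 4 set to 4 its difference was -0.63 log2, which is no call. Slc43a3, a purine nucleobase carrier, had no call.

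Calls between neighbouring days were few before day 10. At day 6 against day 4 Slc1a6 was called higher and Slc7a7 and Slc6a6 lower, which is 1 and 2 members, beside 3.52% and 2.61% of all genes. The Slc6a6 call (8.17 against 9.26 log2, adjusted p = 0.0264) was lost without any single one of 4 arrays, replicates B and C of both days, with adjusted p up to 0.219. At day 8 against day 6, 0 members were called by limma in either direction, with 2 higher and 6 lower at an unadjusted p under 0.05, and 0% and 0.0185% of all genes were called. Without day 8 replicate A, which stood near day 6, Slc1a3 (3.58 log2, adjusted p = 6.84e-05) and Slc36a4 (1.86 log2, adjusted p = 0.0209) were called higher, and Slc1a5 (-1.20 log2, adjusted p = 0.0243) and Slc1a6 (-1.41 log2, adjusted p = 0.012) lower.

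Among the steps between neighbouring DMSO days, the step to day 10 had the most members called lower. As many, 10, were called lower at day 4 against growth, where 4 were called higher. At day 10 against day 8, 10 of the 32 members were called lower, where 3.19% of all tested genes were, and 0 were called higher, where 4.62% of all genes were. At an unadjusted p under 0.05 limma had 15 members lower and 0 higher. The median difference was -0.46 log2 for the members and -0.04 log2 for all genes. In all 10, every day 10 array lay below every day 8 array. The 10 were picked by this same comparison, so the lack of overlap adds no support to the calls. Its share over all genes was not counted.

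The 10 came from different kinds of carrier. Cationic carriers were Slc7a3 (-1.89 ± 0.45 log2, adjusted p = 0.0139, or -1.29 log2 without day 10 replicate A) and Slc7a1, with 9.49, 10.34 and 10.83 log2 at day 10 against 11.29, 11.91 and 11.79 at day 8 (adjusted p = 0.0084). Both neutral exchangers of family 1 fell, Slc1a5 by 1.67 log2 (adjusted p = 0.00342) and Slc1a4 by 1.44 log2, with 8.58, 8.85 and 9.36 log2 at day 10 against 10.43, 10.34 and 10.34 at day 8 (adjusted p = 0.000676). Slc38a1 had 10.51, 10.50 and 10.52 log2 at day 10 against 11.55, 11.56 and 11.67 at day 8 (adjusted p = 0.000795). Slc38a2 had 11.22, 11.61 and 11.70 against 12.60, 12.49 and 12.53 (-1.03 ± 0.23 log2, adjusted p = 0.00973). Slc6a6 fell by 1.75 log2 (adjusted p = 0.00052), Slc6a9 by 1.36 log2 (adjusted p = 0.0231) and Slc1a6 by 1.22 log2 (adjusted p = 0.0109), and Slc7a7 is given above. The pair of Slc7a5 and Slc3a2 differed by -1.41 ± 0.45 and -0.89 ± 0.34 log2, with adjusted p of 0.0506 and 0.0983, and each overlapped between the days.

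The count ranged from 8 to 13 when 1 array was left out and was 11 without day 8 replicate A. That fit dropped Slc1a6 (adjusted p = 0.0508) and Slc38a2 (just under 1 log2) and added Slc7a5 (-1.77 log2, adjusted p = 0.0364), Slc3a2 (-1.21 log2, adjusted p = 0.0452) and Slc38a7 (-1.12 log2, adjusted p = 0.0464). Slc6a9 was lost without day 8 replicate B, day 10 replicate A or day 10 replicate B (adjusted p up to 0.0882), and Slc38a2 without day 10 replicate A. In the fit without Slc38a1's _s_at probe set, that gene differed by -0.54 log2 (adjusted p = 0.342). Over the same step 10 of 12 cardiac markers were called higher, as were 1 of 4 smooth muscle, 2 of 4 embryonic blood, 1 of 3 extraembryonic endoderm, 1 of 4 endothelial and 1 of 4 neural markers, and 1 of 7 pluripotency markers was called lower. Of all tested genes, 4.62% were called higher and 3.19% lower in this step. The part of the markers' cells in the falls was not tested.

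**Figure D4:**
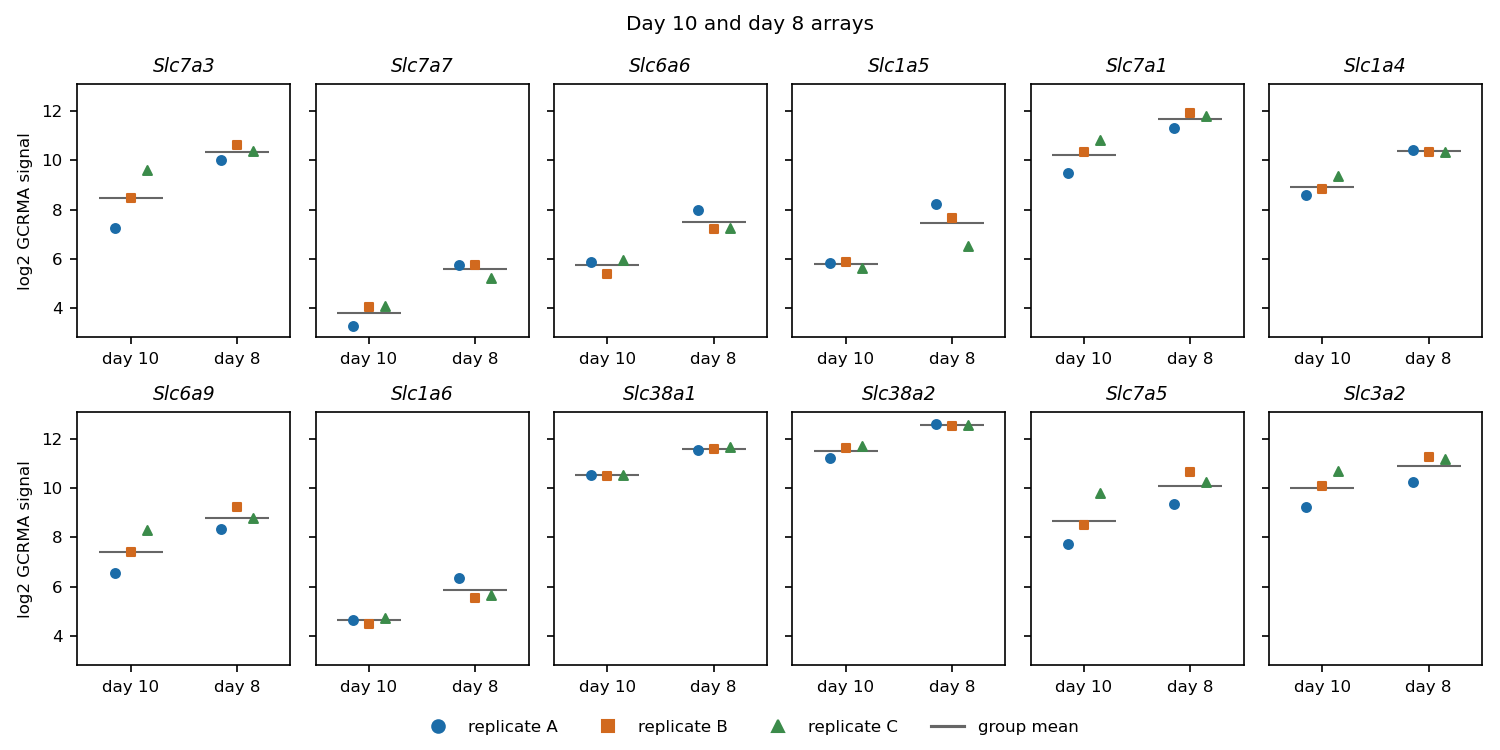
Log2 signal on the day 10 arrays (left in each panel) and the day 8 arrays (right) for the 10 members called lower at day 10 and for Slc7a5 and Slc3a2, which were not called. Symbols mark replicates and bars group means. The 10 called genes, picked by this comparison, do not overlap between the days. Slc7a3, Slc7a7, Slc7a1, Slc1a4, Slc6a9, Slc38a2, Slc7a5 and Slc3a2 have replicate A lowest and replicate C highest at day 10.

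The day 10 cultures also differed among themselves. Replicate A was the lowest and replicate C the highest array for 12 of the 32 members, against 14.5% of all tested genes. Of the 10 members that fell from day 8, 6 had this pattern, against 26.7% of all 345 genes that fell. For Slc7a3 the day 10 arrays spanned 7.25 to 9.62 log2, and for Slc7a5 7.73 to 9.78. At day 12, replicate A lay below replicate C for 22 members, against 51.4% of all genes. The same order at day 10 held for 16 of 19 tested aminoacyl-tRNA synthetase genes (84.2%) and 16 of 23 integrated stress response genes (69.6%). It held for 16 of 34 genes of amino acid synthesis and breakdown (47.1%), and for 16.7 to 25.9% of the other lists of amino acid handling. Among markers it held for 2 of 3 extraembryonic endoderm, 3 of 7 epithelial, 3 of 7 pluripotency, 1 of 4 smooth muscle and 1 of 4 neural ones. It held for 0 of 12 cardiac, 0 of 4 embryonic blood and 0 of 4 endothelial markers.

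From day 10 to day 12 limma called 0 members in either direction, with 1 higher and 1 lower at an unadjusted p under 0.05, beside 2.88% and 0.185% of all genes. Only 2 arrays stand for day 12, which limits what this comparison can detect.

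Other genes of amino acid handling were counted in the same way. Of 45 genes of amino acid synthesis and breakdown, 34 were tested, and 3 were higher and 12 lower at day 4 against growth, 1 and 23 at day 12, and 12 lower at day 10 against day 8. The lower ones were 35.3%, 67.6% and 35.3% of those tested, beside 13.6%, 19.3% and 3.19% of all tested genes. Cbs and Cth encode the enzymes that turn homocysteine into cysteine. Cth fell by 4.53 log2 at day 12 (adjusted p = 2.27e-08), and Cbs, dim on both day 12 arrays, was at least 12-fold lower than in growth (adjusted p = 1.26e-06). Gldc, of the glycine cleavage system, fell by 4.19 log2 (adjusted p = 1.11e-06), and Bcat1, the cytosolic branched-chain aminotransferase, by 3.94 log2 (adjusted p = 7.53e-07).

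The cytosolic aminoacyl-tRNA synthetases, which charge tRNAs, had 19 of 20 genes tested. At day 4 limma called 7 lower and 0 higher, at day 12 15 lower and 0 higher, and at day 10 against day 8 7 lower and 0 higher. The lower ones were 36.8%, 78.9% and 36.8% of those tested, beside 13.6%, 19.3% and 3.19% of all genes. At an unadjusted p under 0.05 there were 2 higher at day 4, 0 at day 12 and 0 at day 10 against day 8. The count of 7 at day 10 against day 8 was 4 without day 8 replicate A. Mars1 (-3.07 log2, adjusted p = 3.23e-08) and Aars (-2.98 log2, adjusted p = 2.07e-05) had the largest falls at day 12, followed by Tars (-2.74 log2) and Lars (-2.60 log2).

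The integrated stress response list had 23 of 24 genes tested, and it moved both ways. At day 4, 1 was higher and 11 lower, and Trib3 (-3.97 log2), Cebpb (-3.53 log2), Atf3 (-3.29 log2) and Nupr1 (-3.10 log2) had the largest falls, with adjusted p from 1.18e-05 to 0.000427. The Cebpb difference was -2.95 log2 without day 4 replicate B. At day 8, 6 were higher and 2 lower, at day 12, 7 higher and 11 lower, and at day 10 against day 8, 9 were lower. The higher ones were 4.35% of those tested at day 4, 26.1% at day 8 and 30.4% at day 12, beside 13.3%, 16% and 22.5% of all genes. The lower ones were 47.8%, 8.70% and 47.8% on these days, beside 13.6%, 15% and 19.3%, and 39.1% at day 10 against day 8, beside 3.19%. The genes called higher at day 12 included Hspa5 (2.21 log2, adjusted p = 3.73e-05) and Xbp1 (1.97 log2, adjusted p = 0.000151), which serve protein folding in the endoplasmic reticulum. Atf4 itself differed by -0.64 log2 at day 4, with no call, and fell by 1.06 log2 at day 12 (adjusted p = 0.000654), a call lost without day 12 replicate A (-0.92 log2). Asns, the asparagine synthetase gene that both this list and the synthesis list hold, fell by 1.91 log2 at day 12 (adjusted p = 1.61e-05) and by 1.83 log2 at day 10 against day 8 (adjusted p = 0.000139).

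**Figure D5:**
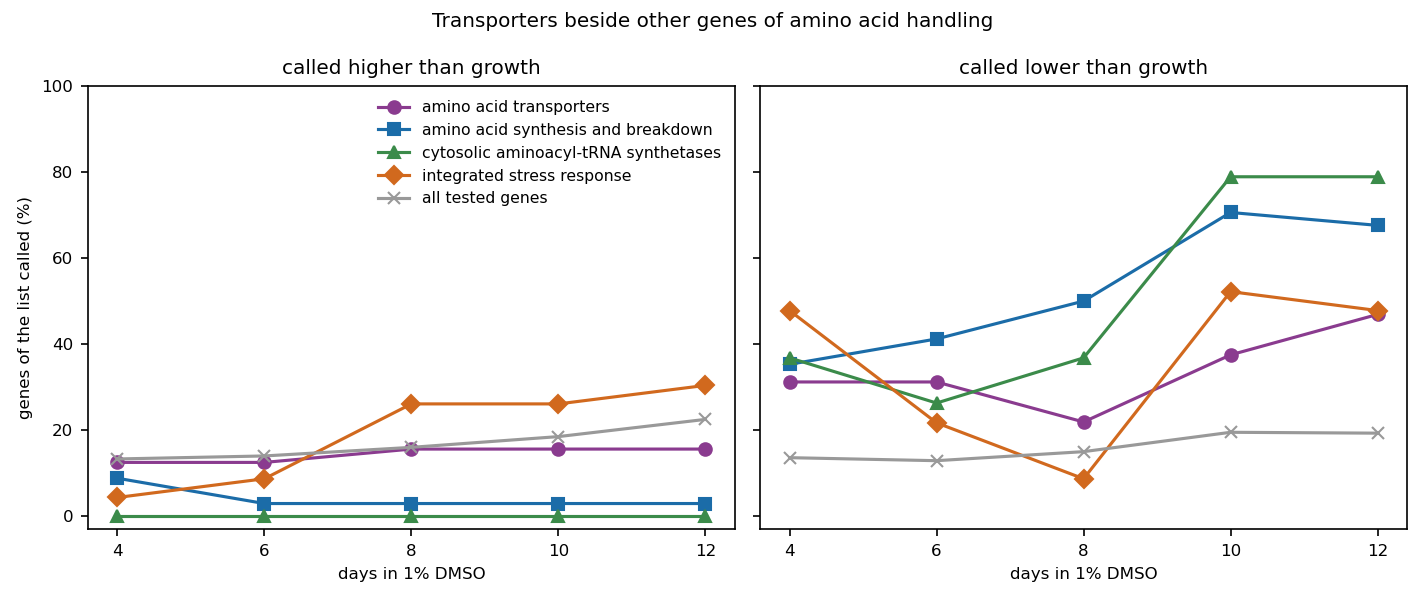
Percent of tested genes called higher (left) or lower (right) than growth at days 4 to 12 in 1% DMSO, for the transporters, amino acid synthesis and breakdown, cytosolic aminoacyl-tRNA synthetases, the integrated stress response and all tested genes. For lower calls, every line is higher at day 10 than at day 8, that of all tested genes included (19.5% and 15%).

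Of 29 genes of mTORC1 and of its upstream control, amino acid sensing included, 27 were tested. At day 12, 2 were higher and 3 lower, which is 7.41% and 11.1% of them, beside 22.5% and 19.3% of all genes. Of these, Depdc5 of the GATOR1 complex fell by 3.86 log2 (adjusted p = 0.000264), the leucine sensor Sesn2 fell by 1.52 log2 (adjusted p = 0.00215), and its relatives Sesn1 and Sesn3 rose by 2.19 and 1.89 log2 (adjusted p = 0.000428 and 0.000134). The stress response list holds Sesn2 too, so its fall counts in both lists. Without day 4 replicate B, day 8 replicate C or day 10 replicate A another Sesn2 probe set was the brightest, and its difference was -2.56 log2. Of 23 amino acid and peptide transporters of other families, 9 were tested, and 1 was higher and 1 lower at day 12, which is 11.1% each, beside 22.5% and 19.3% of all genes. The aspartate and glutamate carrier of mitochondria, Slc25a12, was 2.20 log2 higher (adjusted p = 2e-06), and Slc25a38, the mitochondrial glycine carrier, fell by 1.12 log2 (adjusted p = 0.000666).

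The genes around taurine and creatine can be set beside their transporters. Of 10 genes of glutathione and taurine synthesis 9 were tested, with 3 lower at day 4 (33.3%, beside 13.6% of all genes) and 3 higher at day 12 (33.3%, beside 22.5%). Those higher at day 12 were Cdo1, Csad and Gss. Cdo1 and Gss were dim on every growth array, and Cdo1 was at least 6.37-fold higher (adjusted p = 1.47e-05) and Gss at least 1.91-fold (adjusted p = 0.000442), a bound under the threshold of 1 log2. Csad was 1.29 log2 higher (adjusted p = 0.00541), 1.96 log2 without day 12 replicate C and 0.62 log2, with no call, without replicate A. The Gss call was also lost without day 12 replicate A. Cdo1 and Csad catalyse the steps from cysteine toward taurine, and Gss the last step of glutathione synthesis. At the same day Slc6a6 was 1.48 log2 lower than in growth. Of 12 genes of creatine and polyamine synthesis 6 were tested, with 2 higher and 3 lower at day 12, which is 33.3% and 50% of them, beside 22.5% and 19.3% of all genes. Gamt, which completes creatine, rose by 2.15 log2 (adjusted p = 2.01e-05), and Ckb, brain-type creatine kinase, fell by 2.20 log2 (adjusted p = 0.00127), while Gatm, Ckm, Ckmt1 and Ckmt2 were dim. Sat1, which acetylates polyamines, rose by 2.38 log2 (adjusted p = 0.000303), or 1.76 log2 without growth replicate A, and Srm, spermidine synthase, fell by 1.81 log2 (adjusted p = 9.18e-05).

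Several members were measured by more than 1 probe set. Of the 14 tested members with several probe sets past the filter, 11 had 1 sign over all of them at day 12 against growth, and the exceptions were Slc1a3, Slc38a9 and Slc38a10. For Slc6a6 they ranged from -2.62 to -0.84 log2 and for Slc7a11 the lowest was -3.41 log2. The single probe set shared with another gene, for Gm13872 and Slc1a2, reached 2.06 log2 at most.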

How the data were processed

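Gene expression in P19CL6 cells was measured on 16 Affymetrix mouse arrays, in 6 groups taken from the labels. Per the submitters' processing notes the values come from GCRMA, whose version is not given in the sources used here. They were used as deposited and read as log2 signals from their range of 0.86 to 15.9. The design text states that samples were independent.

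Of 45101 probe sets, 34945 name 1 gene, 932 several and 9160 none here, and 64 are controls. Probe sets above log2 4 on fewer than 2 arrays were left out, and the brightest single-gene probe set of each gene was kept. All 58 Entrez numbers were found in RefSeq. Group means were estimated with limma 3.58.1 (R 4.3.3) in 1 model of the 16 arrays, with 10 residual and 3.53 prior degrees of freedom and Benjamini-Hochberg adjustment over all tested genes. The model was tested on simulated data. Figures were drawn with Python 3.11.15.

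The members and gene lists were chosen with earlier results of these data known. By rule, every member is accounted for, values on every array are given for called members whose group means span at least 2 log2 and for heavy chains, and each list names up to 4 called genes with the largest change at day 12 (day 4 for the stress response). Atf4, Asns, Hspa5, Xbp1 and the array values of further members that fell at day 10 were added after their values were seen. Alternatives changed the dim filter, scaling, floor, variance model, weights, replicate block, groups fitted and probe sets, and left out each array in turn. Same-letter arrays deviated together with a correlation over 0.1 in 13 of 35 pairs, and the 35 values ran from -0.207 to 0.324. These values do not decide whether letters pair samples. As the design text calls the samples independent, letters were not used as pairs in the main model.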

Additional observations from a re-analysis of the deposited data

How the results depend on the processing

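Over the 9 comparisons 91 member differences met both thresholds once rounded. These include Slc6a9 at day 8 against growth, which fell just short of a call and counts as kept where it stayed uncalled. The alternatives other than leaving out an array kept 83 to 91 of the differences that could be recomputed. At the log2 6 filter this was 87 of 87, and no difference reversed in any alternative. The mean of all probe sets kept the fewest. The fit with the replicate block kept all 91 and added Slc7a5 at day 10 against day 8 (adjusted p = 0.0398), which gives 11 lower there. Whether the letters pair samples was not settled.

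The counts that moved by more than 1.5 times were those between neighbouring days. The 2 members lower at day 6 against day 4 became 1 with no dim filter, 1 with the mean of the probe sets and 0 in a fit of only those 2 groups, and 1 to 2 without single arrays. At day 8 against day 6, array weights gave 2 higher and 1 lower, and leaving out single arrays gave 0 to 2 higher and 0 to 2 lower. The 10 lower at day 10 against day 8 became 6 in a fit of only the 2 groups, which has fewer samples, and 8 to 13 without single arrays. At day 12 against day 10 no dim filter gave 1 higher. The cause of the other moves was not tested.

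Without single arrays the members higher than growth numbered 4 to 5, 4 to 5, 5 to 6, 4 to 5 and 5 to 6 at days 4, 6, 8, 10 and 12, and those lower 9 to 10, 7 to 10, 6 to 9, 12 to 14 and 13 to 15. The time-course count was 24 to 25. A fit without a day 6 or day 12 array leaves 1 array there, assumed to vary like the other groups. Signals near log2 4 limit what can be said of Slc43a2, Slc1a6 and Slc7a11, and 2 arrays at days 6 and 12 limit those comparisons.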
